A study of Mus musculus with 2 samples.

Results

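The Ly6 surface protein genes read here were Ly6a, Ly6c1, Ly6c2, Ly6e and Ly6i, 5 of the 32285 genes in the count matrices, taken by gene symbol and followed across cell classes and scaffolds. They were chosen with their values in these libraries known, Ly6a, Ly6c1 and Ly6c2 in macrophages above all, so every scaffold difference below is a description. The cells came from scaffolds that filled a skull defect of 3.5 mm in female Balb/c mice aged 6 weeks. The scaffold was cell-free and was either Gel50_CS50 or Gel100, and the labels do not spell out these names. Scaffolds were collected at week 1, the cells of 5 mice per scaffold were pooled, and viable cells were sorted for droplet sequencing from the 3' end of transcripts. Each scaffold is therefore 1 library of 1 pool, mice cannot be told apart, and no test between scaffolds was possible. Levels are unique molecular identifiers (UMIs, counts of captured transcripts) summed over the cells of a class and scaled to counts per 1000000 UMIs (CPM), without division by transcript length since each transcript is counted once at its 3' end. Each interval is a 95% interval for counting error and leaves out differences among mice.

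Ly6 proteins are small, cysteine-rich proteins held on the outer cell surface by a glycosylphosphatidylinositol (GPI) lipid anchor. In mice several of their genes are induced by interferons, and their antibodies are standard sorting reagents. Ly6c2 and Ly6c1 encode near-identical forms of the Ly6C antigen, which is high on inflammatory monocytes, and Ly6c1 is also known from endothelium. Ly6a encodes Sca-1, used to sort blood stem cells and mesenchymal progenitors and raised on activated T cells. Ly6e is broadly expressed and is known for effects on virus entry and as a receptor for a placental fusion protein. Ly6i is known from myeloid cells.

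All 5 genes are protein-coding and lie on chromosome 15 within 157 kb of GRCm38 (mm10), by the GENCODE vM21 annotation. From the proximal end these are Ly6e (ENSMUSG00000022587, 74955051 to 74959905, plus strand), Ly6i (ENSMUSG00000022586, 74979534 to 74983430), Ly6a (ENSMUSG00000075602, 74994877 to 74998031), Ly6c1 (ENSMUSG00000079018, 75044018 to 75048830) and Ly6c2 (ENSMUSG00000022584, 75108158 to 75111970), the last 4 on the minus strand. The first annotated transcript has 4 exons for Ly6e, Ly6c1 and Ly6c2 and 3 exons for Ly6i and Ly6a. Ly6c1 and Ly6c2 share 97.7% of their coding sequence. Ly6a shares 86.4% with Ly6i and 82.0% with Ly6c1, whereas Ly6e shares 53.8% to 58.4% with the others.

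The coding sequences of Ly6c1 and Ly6c2 are shown because the text sets their counts against each other. Each has 396 bases in the GENCODE transcripts. The first 260 are printed, and capitals mark the 7 of the 9 differing bases that lie in them.
Ly6c1 coding sequence, positions 1 to 260: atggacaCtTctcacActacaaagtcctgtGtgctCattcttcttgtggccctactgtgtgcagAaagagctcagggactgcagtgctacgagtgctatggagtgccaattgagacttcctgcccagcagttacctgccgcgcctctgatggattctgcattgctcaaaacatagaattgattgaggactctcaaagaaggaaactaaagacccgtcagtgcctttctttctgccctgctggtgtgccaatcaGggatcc
Ly6c2 coding sequence, positions 1 to 260: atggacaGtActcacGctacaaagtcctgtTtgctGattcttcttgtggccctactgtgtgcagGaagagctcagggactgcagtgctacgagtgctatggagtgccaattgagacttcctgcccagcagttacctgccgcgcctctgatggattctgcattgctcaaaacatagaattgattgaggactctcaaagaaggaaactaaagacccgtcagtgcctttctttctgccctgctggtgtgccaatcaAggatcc
Of the 9 differing bases, 6 lie within the first 65, and the 2 not printed lie at positions 327 and 376, counted from the start codon. In the last 400 bases of the transcripts, 35 of 311 windows of 90 bases (11.3%) were identical between Ly6c1 and Ly6c2, and the tails as a whole were 96.5% identical. No such window of Ly6a, Ly6e or Ly6i occurred in the transcript of another gene. No source used here says how reads that fit both Ly6c1 and Ly6c2 were counted, and the mice are Balb/c whereas the reference genome is not. The split between these 2 genes is therefore uncertain.

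Upstream, the windows compared were less alike. Of the 5 genes, 2 had an entry in the RefSeq promoter table (GRCm38.p6), Ly6c1 and Ly6c2. The 250 bases before their starts were 65.6% identical when aligned from end to end. Stretches found in both windows lie at different distances from the 2 starts. Bases that this offset leaves without a partner count as differing, so the value can overstate how far the upstream sequences differ. The windows are shown because the 2 genes differed in which cell classes held them. Capitals mark matches, on either strand, to the motifs searched, which were the interferon-response type (GAAA, any 2 bases, GAAA), the STAT-type TTCNNNGAA, the ETS core GGAAGT and the TATA sequence TATAAA.
Ly6c1 promoter, chr15:75048838-75049087, minus strand: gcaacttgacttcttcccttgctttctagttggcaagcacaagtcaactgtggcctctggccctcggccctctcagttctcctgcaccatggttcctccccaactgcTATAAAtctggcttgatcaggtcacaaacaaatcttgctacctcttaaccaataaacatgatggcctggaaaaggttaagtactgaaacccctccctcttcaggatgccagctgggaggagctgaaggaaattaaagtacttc
Ly6c2 promoter, chr15:75111972-75112221, minus strand: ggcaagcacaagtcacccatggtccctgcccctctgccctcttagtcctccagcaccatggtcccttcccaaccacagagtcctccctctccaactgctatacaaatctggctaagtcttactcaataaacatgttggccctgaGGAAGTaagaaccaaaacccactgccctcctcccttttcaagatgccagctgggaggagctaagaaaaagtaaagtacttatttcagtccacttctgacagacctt
The Ly6c1 window held a TATAAA that began 143 bases before the start, a sequence found in 12.4% of the 32851 promoter windows of that length. The Ly6c2 window held a GGAAGT that began 106 bases before the start, found in 19.7% of windows. The interferon-response type (2.98% of windows) and TTCNNNGAA (7.02%) were in neither window, which says nothing of the factors that bind such sites.

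Filtering left 7206 Gel50_CS50 cells (median 16509.5 UMIs) and 7601 Gel100 cells (median 12707). They shared 22 cell barcodes. Cells were clustered without the 5 genes and without other Ly6 and uPAR family genes. Of 27 clusters, 22 were named by cell type markers, which left 3.36% of the Gel50_CS50 and 12.8% of the Gel100 cells unnamed. A class name means cells like that type. The 10 macrophage markers summed to 21517.5 CPM in Gel50_CS50 and 16938.1 CPM in Gel100 in macrophages and monocytes, with none at 0. The classes compared were macrophages and monocytes (3714 Gel50_CS50 and 3841 Gel100 cells), and in the same way neutrophils (1407 and 614), stromal cells (654 and 218), T and NK cells (512 and 1078), conventional dendritic cells (313 and 366), plasmacytoid dendritic cells (258 and 420), endothelial cells (55 and 61) and pericytes or smooth muscle cells (51 Gel50_CS50 and 28 Gel100 cells).

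The Ly6 genes were lower in the Gel50_CS50 library in nearly every class where they were measured, that is, where the mean of both libraries was at least 20 CPM. In macrophages and monocytes, 5 of 5 genes lay below 1/1.5 of their Gel100 level, where 4.53% of the 6112 measured genes did. Their median log2 ratio was -1.51, against -0.01 over all genes of the class. This is the contrast the genes were chosen on. In neutrophils it was 4 of 5 genes, with 11.6% of all measured genes beyond that fold. In conventional dendritic cells it was 4 of 4 (3.91% of all genes), in plasmacytoid dendritic cells 2 of 4 (1.23%), in T and NK cells 3 of 4 (1.88%) and in stromal cells 4 of 4 (2.38%). In endothelial cells it was 1 of 4 and in pericytes or smooth muscle cells 2 of 4, and these thin classes had 14.4% of all genes beyond that fold. The stromal, endothelial and pericyte counts each include Ly6c2, which stood there at 1.04% to 5.71% of its macrophage level. In 2 of these classes Ly6c2 reached the mean of 20 CPM only through its Gel100 level. It had 14.1 CPM in Gel50_CS50 and 49.4 CPM in Gel100 in stromal cells, and 5.04 and 43.4 CPM in endothelial cells. Its place in those counts therefore follows in part from the limit on mean CPM. In none of the 8 classes was a measured Ly6 gene above 1.5-fold. The plot of log2 ratios by class shows these values.

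**Figure D1:**
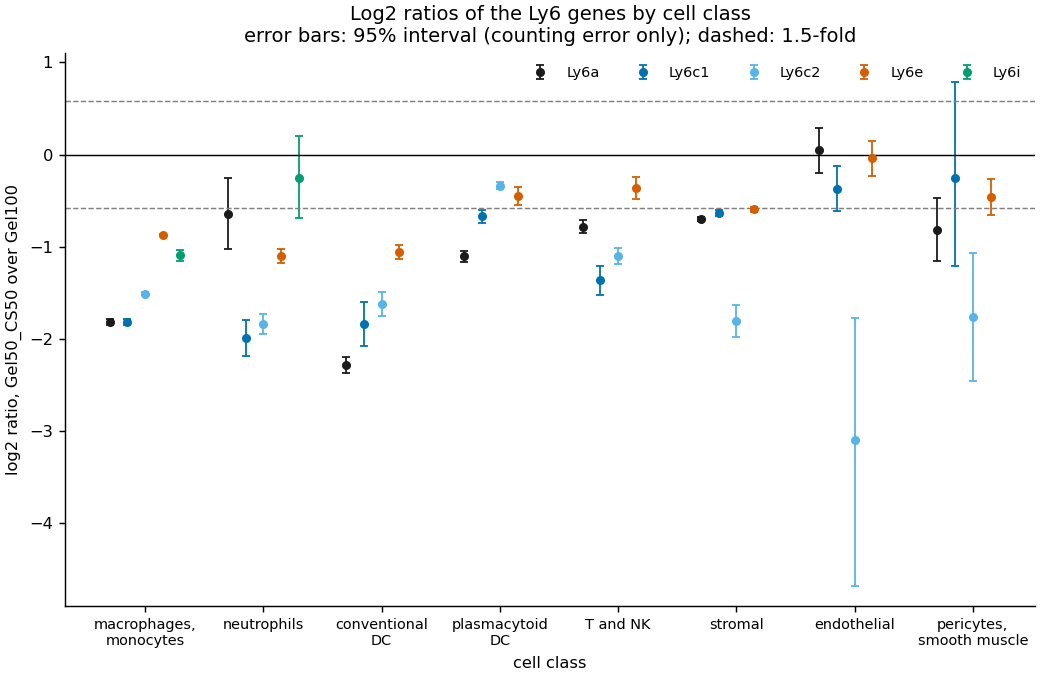
Log2 ratio of Gel50_CS50 over Gel100 for each Ly6 gene (points, colours) in each cell class, with 95% intervals for counting error and dashed lines at 1.5-fold. Genes with a mean of both libraries under 20 CPM are not drawn. Points lie below 0 except Ly6a in endothelial cells at 0.04, and Ly6c2 in endothelial cells, from 6 Gel50_CS50 and 24 Gel100 UMIs, has the widest interval.

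Of the 8 classes, Ly6c2, the gene behind the monocyte Ly6C antigen, was highest in plasmacytoid dendritic cells and next in macrophages and monocytes. It stood at 1629 CPM (1593 to 1666) in the Gel50_CS50 and 2060.2 CPM (2028 to 2093) in the Gel100 plasmacytoid dendritic cells, a log2 ratio of -0.34 (-0.38 to -0.30). In macrophages and monocytes it stood at 484.0 CPM (479 to 489) in Gel50_CS50 and 1380.1 CPM (1371 to 1389) in Gel100, a ratio of -1.51 (-1.53 to -1.49). The order of these 2 classes was the same in both libraries, and the libraries lay closer together in plasmacytoid dendritic cells. Single macrophage clusters departed from that order in Gel100, where clusters 2 and 0 held 2430 and 2233 CPM. In Gel50_CS50 clusters 2 and 0 held 1266 and 1621 CPM. Neutrophils had 180.2 CPM in Gel50_CS50 and 645.2 in Gel100 (-1.84, -1.95 to -1.73), T and NK cells 241.7 and 518.2 (-1.10), and conventional dendritic cells 98.9 and 305.0 (-1.62). The last ratio depended on which clusters were counted in that class and was -3.63 with 50 principal components.

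Ly6c1 stood at 131 CPM (128 to 133) in the Gel50_CS50 and 460.1 CPM (455 to 465) in the Gel100 macrophages and monocytes, a log2 ratio of -1.82 (-1.85 to -1.78). Stromal cells and plasmacytoid dendritic cells had more of it in both libraries. In stromal cells it reached 501.5 CPM in Gel50_CS50 and 779 CPM in Gel100 (-0.63, -0.67 to -0.60), in plasmacytoid dendritic cells 467 and 744 (-0.67), and in endothelial cells 303 and 392 (-0.37, -0.62 to -0.12). The median endothelial cell had 18617 UMIs in Gel50_CS50 and 1972 in Gel100, and the part of this gap in the endothelial ratios was not tested. In Gel50_CS50 the stromal level of Ly6c1 lay above the plasmacytoid level by more than their intervals, and in Gel100 the intervals of the 2 classes met, at 762 to 795 and 724 to 763. Neutrophils had 52.4 CPM in Gel50_CS50 and 208 in Gel100 (-1.99), T and NK cells 68.5 and 177 (-1.37), and conventional dendritic cells 29.3 and 105 (-1.84).

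**Figure D2:**
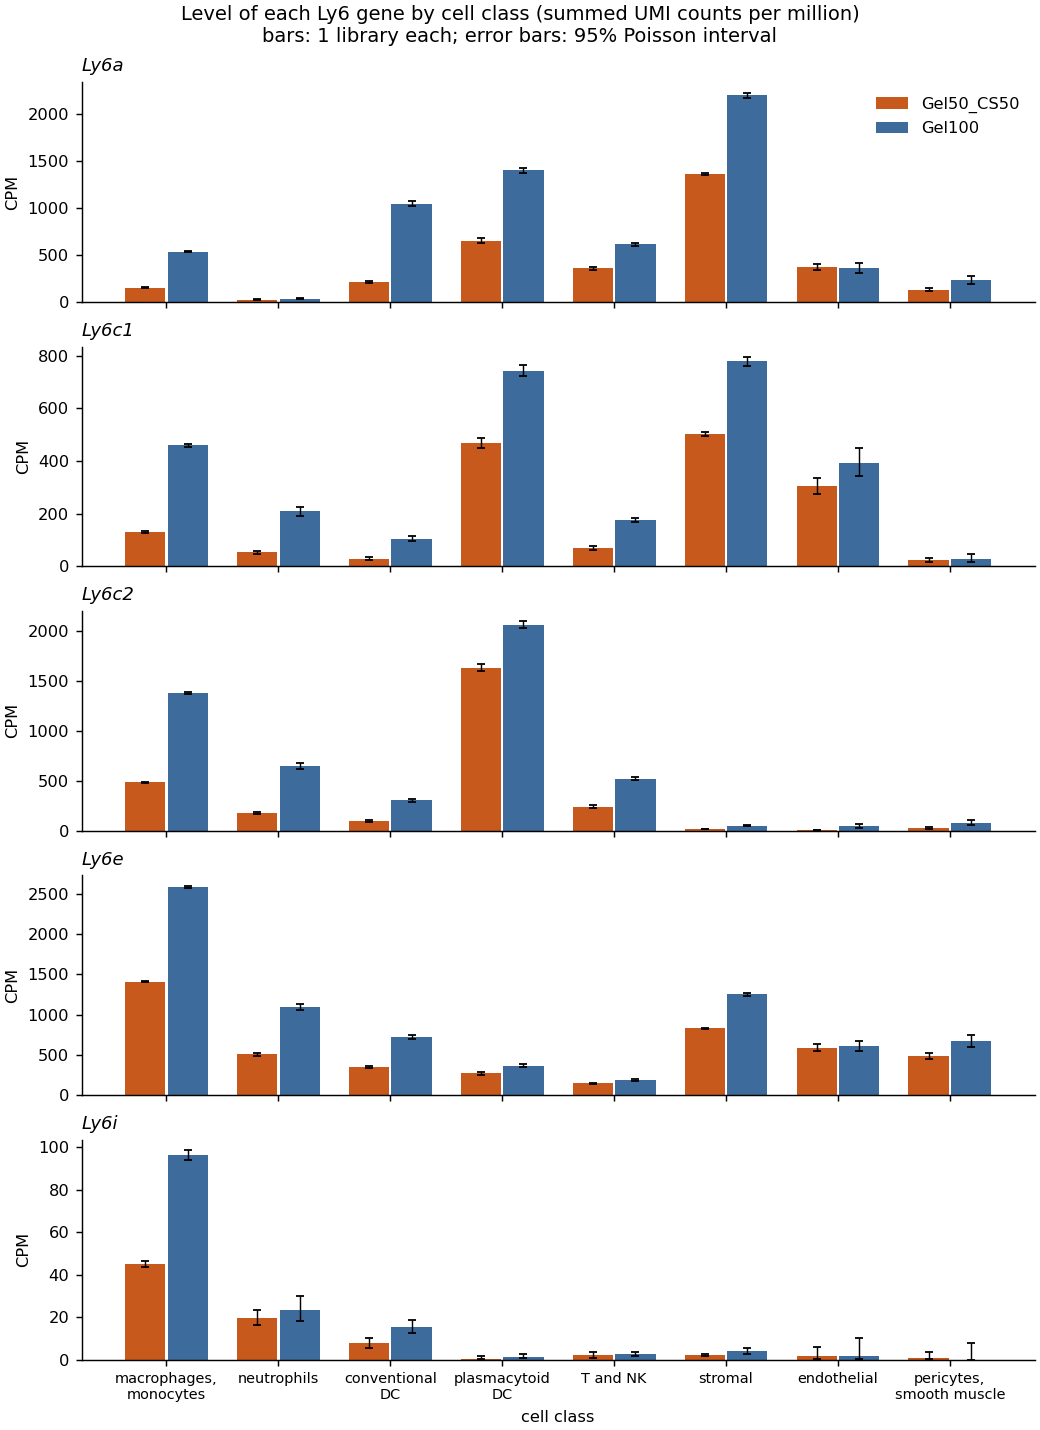
Level of each Ly6 gene (1 panel each) as summed CPM in 8 cell classes, with Gel50_CS50 in orange left of Gel100 in blue and 95% Poisson intervals. Ly6a peaks in stromal cells, Ly6c2 in plasmacytoid dendritic cells, and Ly6e and Ly6i in macrophages and monocytes, in both libraries.

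Ly6c1 and Ly6c2 were held in different proportions by immune cells and by stromal and endothelial cells. In the immune classes Ly6c1 made up a narrow share of the UMIs of both genes together. That share was 21.3% (20.9 to 21.6%) in the Gel50_CS50 and 25.0% (24.8 to 25.2%) in the Gel100 macrophages and monocytes. Across those cells, neutrophils, both kinds of dendritic cells and T and NK cells, it ran between 21.3% and 22.8% in Gel50_CS50 and between 24.4% and 26.5% in Gel100. In stromal cells Ly6c1 made up 97.3% in Gel50_CS50 and 94.0% in Gel100, and in endothelial cells 98.4% and 90.04%. In pericytes or smooth muscle cells it made up 49.3% (37.2 to 61.4%) of 71 UMIs in Gel50_CS50 and 25.5% (14.3 to 39.6%) of 51 UMIs in Gel100. Stromal markers summed in that class to 13007.8 CPM in Gel50_CS50 and 4735.7 CPM in Gel100. Its own markers summed to 9422.7 CPM in Gel50_CS50 and 15762.7 CPM in Gel100. The part of stromal RNA in its Ly6c1 share was not tested. An immune exception was T cell cluster 20, led by Il2ra, Ikzf2 and Ctla4, where Ly6c1 made up 71.2% (57.9 to 82.2%) of 59 UMIs in Gel50_CS50 and 67.1% (59.4 to 74.1%) of 170 UMIs in Gel100. How far the near-constant share in immune classes comes from reads that fit both genes was not tested.

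**Figure D3:**
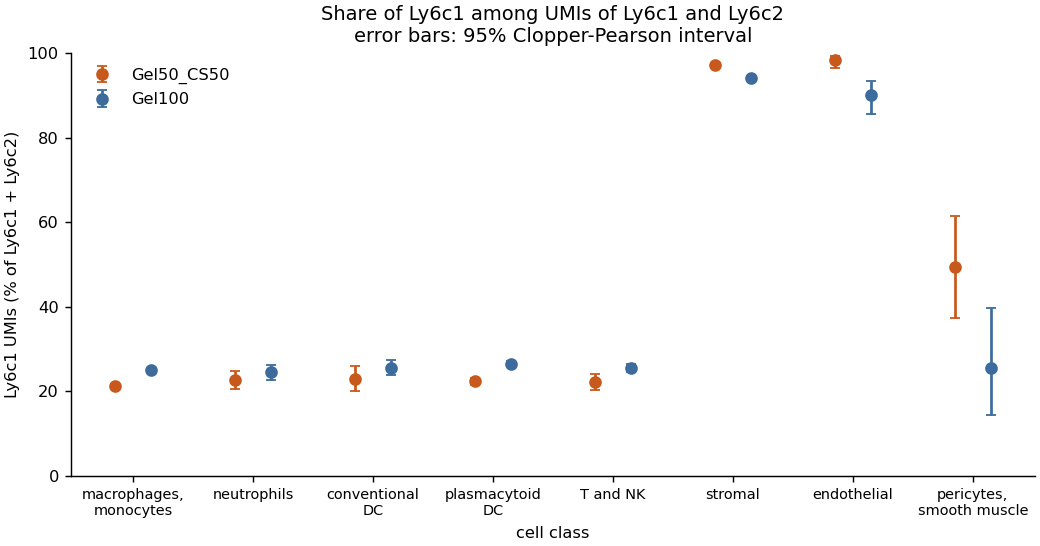
Ly6c1 UMIs as a percentage of Ly6c1 and Ly6c2 UMIs in each class, for Gel50_CS50 (orange, left) and Gel100 (blue, right), with 95% Clopper-Pearson intervals. The 5 immune classes sit near 22% in Gel50_CS50 and 25% in Gel100, whereas stromal and endothelial cells sit at 90.04% or above.

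Ly6c2 in stromal cells stood near the share of their macrophage level at which macrophage markers were found there. It stood there at 14.1 CPM in Gel50_CS50 and 49.4 CPM in Gel100, which was 2.91% and 3.58% of its macrophage level. The 10 macrophage markers stood in stromal cells at 2.12% to 4.08% of their macrophage level in Gel50_CS50 and 2.02% to 3.47% in Gel100, and none was at 0. With each cell thinned to 3000 UMIs, 3.22% of the Gel50_CS50 and 11.5% of the Gel100 stromal cells held a Ly6c2 UMI (34.1% and 65.6% before thinning, at medians of 53942 and 50188 UMIs). In macrophages and monocytes those shares were 41.5% in Gel50_CS50 and 69.8% in Gel100 (63.7% and 83.5% before thinning, at medians of 18988.5 and 16197 UMIs). Ly6c2 stood in endothelial cells at 1.04% of its macrophage level in Gel50_CS50 and 3.14% in Gel100, and in pericytes or smooth muscle cells at 4.79% in Gel50_CS50 and 5.71% in Gel100. The median macrophage marker stood in endothelial cells at 3.46% in Gel50_CS50 and 3.73% in Gel100, and in pericytes or smooth muscle cells at 6.29% in Gel50_CS50 and 10.5% in Gel100. No expression of Ly6c2 by these 3 classes is read from its ratios there, and the part of macrophage RNA in them was not tested. Stromal Ly6c1 and Ly6a, at 384% and 901% of their macrophage level in Gel50_CS50 and 169% and 414% in Gel100, were far above those marker shares.

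Ly6a, the Sca-1 gene, was highest of the 8 classes in stromal cells and next in plasmacytoid dendritic cells, in both libraries. Stromal cells had 1355 CPM (1344 to 1367) in Gel50_CS50 and 2196 CPM (2169 to 2224) in Gel100, a log2 ratio of -0.70 (-0.72 to -0.67). Plasmacytoid dendritic cells had 651 CPM (628 to 674) in Gel50_CS50 and 1399 CPM (1372 to 1426) in Gel100, a ratio of -1.10. The widest gap was in conventional dendritic cells, at 213 CPM (202 to 224) in Gel50_CS50 and 1041 CPM (1015 to 1067) in Gel100. That ratio of -2.29 (-2.37 to -2.20) ranked 2 from the lowest of the 5883 genes measured in that class. It was lower in both clusters of the class, at 223 CPM in Gel50_CS50 and 1074 CPM in Gel100 in cluster 13, led by the migration genes Ccr7 and Fscn1, and at 182 CPM in Gel50_CS50 and 977 CPM in Gel100 in cluster 18. Macrophage markers summed in conventional dendritic cells to 1932 CPM in Gel50_CS50 and 1098 CPM in Gel100. The markers of the class itself summed to 2123 CPM in Gel50_CS50 and 2133 CPM in Gel100. The part of macrophage RNA in the Ly6 values of this class was not tested. Macrophages and monocytes had 150.4 CPM (148 to 153) in Gel50_CS50 and 531 CPM (525 to 536) in Gel100, a ratio of -1.82 (-1.85 to -1.79), and T and NK cells 355 CPM in Gel50_CS50 and 612 CPM in Gel100 (-0.78).

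A smaller share of the Gel50_CS50 macrophages held a Ly6a UMI. At 3000 UMIs per cell, 16.7% (15.5 to 17.9%) of the Gel50_CS50 and 40.9% (39.3 to 42.5%) of the Gel100 macrophages and monocytes had a Ly6a UMI, with 52 and 331 shallower cells left out (36.9% and 60.5% before thinning). In neutrophils, where Ly6a was near its lowest, 5.57% in Gel50_CS50 and 9.33% in Gel100 did at 3000 UMIs, at 22.4 CPM in Gel50_CS50 and 35.1 CPM in Gel100. The neutrophil ratio of -0.64 had an interval of -1.02 to -0.26 and so reached across the 1.5-fold line, and it was -1.29 with neutrophils gated cell by cell on their markers. Macrophage markers stood in neutrophils at a median of 9.31% of their macrophage level in Gel50_CS50 and 7.93% in Gel100, and Ly6a at 14.9% and 6.61%. Endothelial Ly6a did not differ beyond counting error, at 371 CPM in Gel50_CS50 and 359 CPM in Gel100 (0.04, -0.20 to 0.29), with the same gap in depth. The 7 stromal markers summed to 1965 CPM in the Gel50_CS50 and 57.8 CPM in the Gel100 endothelial cells, with none at 0. The part of stromal RNA in the endothelial values of Ly6a, Ly6c1 and Ly6e was not tested.

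The libraries drew their Ly6a transcripts from different cells. Stromal cells gave 72.7% of the 70182 Ly6a UMIs of Gel50_CS50 and 29.0% of the 82801 of Gel100, and macrophages and monocytes 16.5% and 41.1%. Stromal cells were 9.08% of the Gel50_CS50 and 2.87% of the Gel100 cells. For Ly6c1 the stromal share was 57.9% in Gel50_CS50 and 17.9% in Gel100. Ly6c2 came mostly from macrophages and monocytes in both libraries, at 75.7% in Gel50_CS50 and 76.8% in Gel100.

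Within the stromal class Ly6a and Ly6c1 marked 1 of the 2 clusters. In cluster 15, led by Dcn and Ebf1, Ly6a stood at 2221 CPM in Gel50_CS50 and 2708 in Gel100 (-0.29, -0.31 to -0.26). In cluster 14, led by Col1a1 and Col12a1, it stood at 509 CPM in Gel50_CS50 and 1613 CPM in Gel100 (-1.66, -1.71 to -1.62). Ly6c1 had the same order, at 942 CPM in Gel50_CS50 and 1217 CPM in Gel100 in cluster 15 (-0.37) and 70.3 CPM in Gel50_CS50 and 279.8 CPM in Gel100 in cluster 14 (-1.99). The scaffold difference was thus wider in the cluster with the lower level, and the class held the clusters in like proportion, with cluster 14 at 52.6% in Gel50_CS50 and 52.3% in Gel100. Of all genes measured in stromal cells, 2.38% lay below 1/1.5. Of 12 other surface genes of stromal progenitors measured in stromal cells, 2 were below 1/1.5 and 0 above, with a median of -0.06. The 2 were Cd44, a hyaluronan receptor (714 CPM in Gel50_CS50 and 1686 CPM in Gel100), and Thy1, another GPI-anchored protein (180.5 CPM in Gel50_CS50 and 329 CPM in Gel100). With each cell weighted equally, the stromal ratios of Ly6a, Ly6c1 and Ly6e were -0.50, -0.45 and -0.48, inside the 1.5-fold line.

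Among lymphocytes, Ly6a was highest in cells with Foxp3, the regulatory T cell factor. Cells of T cell clusters 16 and 20 were gated by any UMI of Foxp3, Cd4 or Cd8a. Those with Foxp3 had 1519 CPM (1436 to 1605, 66 cells) in Gel50_CS50 and 2731 CPM (2613 to 2854, 69 cells) in Gel100. The Cd4 gate without Foxp3 had 80.5 CPM (42 cells) in Gel50_CS50 and 376 CPM (99 cells) in Gel100, and the Cd8a gate 195 CPM (22 cells) in Gel50_CS50 and 657 CPM (42 cells) in Gel100. NK cell cluster 6 had 67.7 CPM in Gel50_CS50 and 345 CPM in Gel100 (-2.35). Gamma-delta T cell cluster 17 lay between these and the Foxp3 gate, at 498 CPM in Gel50_CS50 and 1232 CPM in Gel100 (-1.31). Ly6a was lower in Gel50_CS50 in 4 of 4 T and NK clusters, with log2 ratios between -2.49 and -0.75. Cluster 20, where Ly6a was highest, made up 15.2% of the class in Gel50_CS50 and 7.42% in Gel100, and with both libraries weighted to the same cluster mix the class ratio was -1.38 in place of -0.78.

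Of the Foxp3, Cd4 and Cd8a gates, Ly6c2 was lowest in the Foxp3 gate, where Ly6a was highest. The Cd8a gate held 478 CPM (390.1 to 579.6) in Gel50_CS50 and 967 CPM (873 to 1069) in Gel100, the Cd4 gate without Foxp3 324 CPM in Gel50_CS50 and 581 CPM in Gel100, and the Foxp3 gate 18.0 CPM in Gel50_CS50 and 91.5 CPM in Gel100. In gamma-delta T cell cluster 17, Ly6c2 stood at 50.5 CPM in Gel50_CS50 and 21.2 CPM in Gel100, from 48 and 20 UMIs, a ratio of 1.25 (0.47 to 2.08). Among the measured Ly6 genes of the 4 T and NK clusters it was the 1 ratio above 1.5-fold. Few cells carried it, since 12.1% of the cluster's cells in Gel50_CS50 and 15.5% in Gel100 held a Ly6c2 UMI. Macrophage markers stood in T and NK cells at a median of 2.05% of their macrophage level in Gel50_CS50 and 3.36% in Gel100. The part of macrophage RNA in the low Ly6c2 values of cluster 17 and the Foxp3 gate was not tested.

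Ly6e, the broadest of the 5 genes, was highest in macrophages and monocytes, at 1412 CPM (1403 to 1420) in Gel50_CS50 and 2589 CPM (2576 to 2601) in Gel100. The log2 ratio was -0.87 (-0.89 to -0.86), the smallest gap of the 5 genes in that class. Before thinning, 97.7% of the Gel50_CS50 and 97.9% of the Gel100 cells of the class held a Ly6e UMI. The median cell had 1265 CPM in Gel50_CS50 and 2436 CPM in Gel100. Stromal cells had 829 CPM in Gel50_CS50 and 1252 CPM in Gel100 (-0.59, -0.62 to -0.57), on the 1.5-fold line, and neutrophils 508 CPM in Gel50_CS50 and 1092 CPM in Gel100 (-1.10, -1.17 to -1.03). In endothelial cells it stood at 588 CPM in Gel50_CS50 and 605 CPM in Gel100 (-0.04, -0.23 to 0.15), which did not differ beyond counting error. The part of the endothelial gaps in depth and stromal markers in this ratio was not tested. T and NK cells had the lowest Ly6e level of the 8 classes in both libraries, at 144.9 CPM in Gel50_CS50 and 186 CPM in Gel100 (-0.36).

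Ly6i was a macrophage gene in these cells. Macrophages and monocytes gave 92.3% of its 3745 UMIs in Gel50_CS50 and 95.4% of its 6464 UMIs in Gel100. Its level was 45.0 CPM (43.5 to 46.5) in Gel50_CS50 and 96.1 CPM (93.7 to 98.5) in Gel100, a log2 ratio of -1.09 (-1.15 to -1.03). Neutrophils followed at 19.6 CPM (16.4 to 23.3) in Gel50_CS50 and 23.4 CPM (18.0 to 29.9) in Gel100, which did not differ beyond counting error (-0.25, -0.70 to 0.20). In stromal cells, T and NK cells and the other classes except conventional dendritic cells (7.55 CPM in Gel50_CS50 and 15.4 CPM in Gel100) it was under 4 CPM in both libraries. In stromal cells that was 4.67% in Gel50_CS50 and 4.003% in Gel100 of the macrophage level, from 79 and 42 UMIs. These shares lay above those of the macrophage markers there, 2.12% to 4.08% in Gel50_CS50 and 2.02% to 3.47% in Gel100. The part of macrophage RNA in them was not tested.

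**Figure D4:**
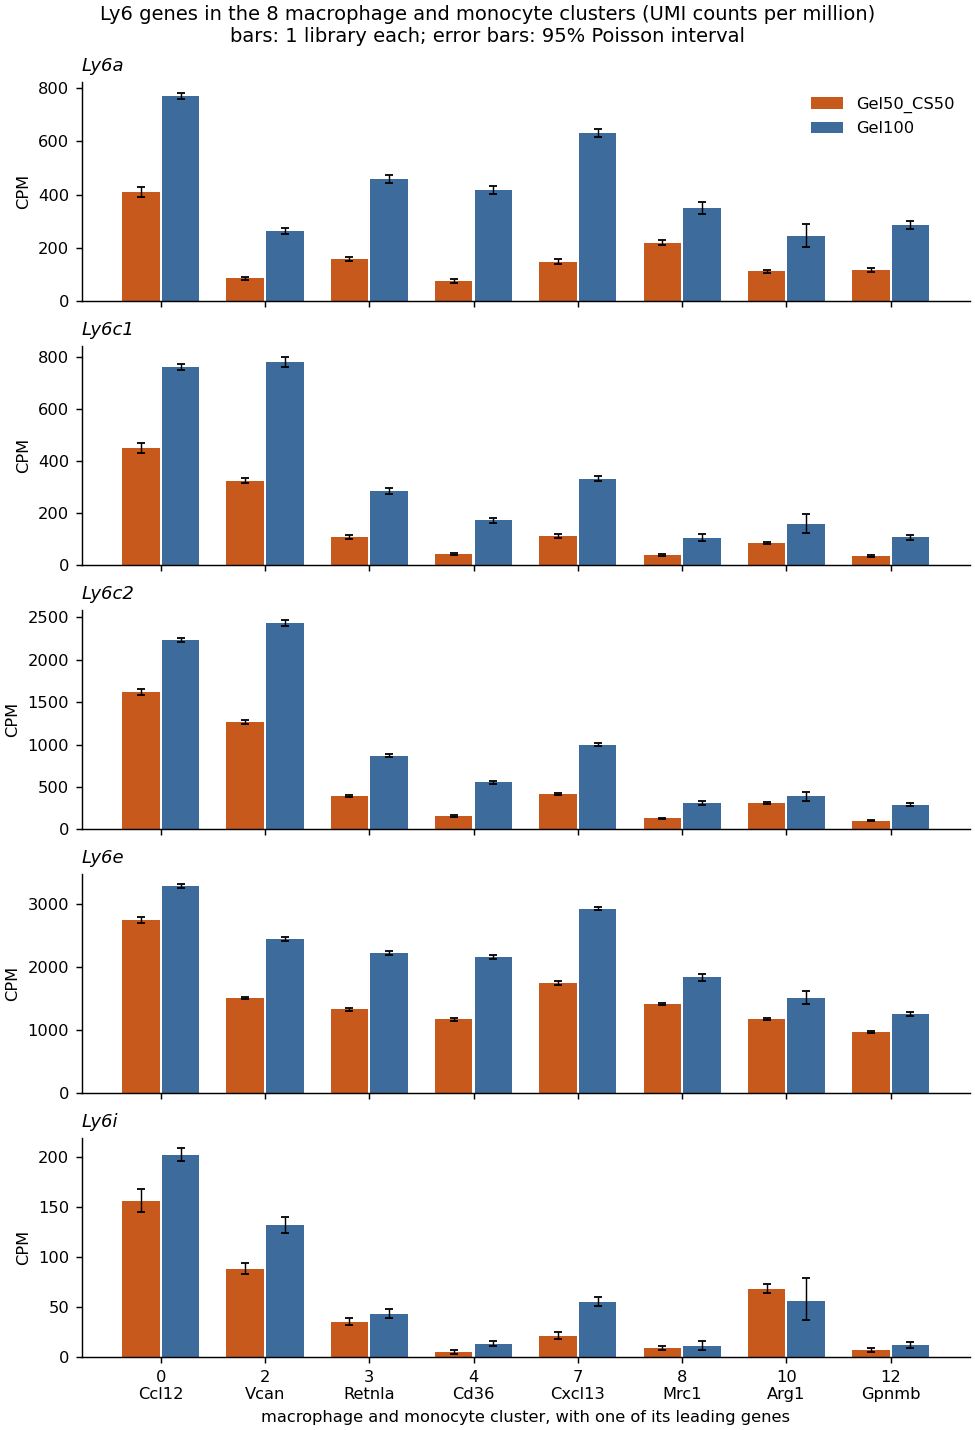
Level of each Ly6 gene (1 panel each) as CPM in the 8 macrophage and monocyte clusters, numbered and named by a leading gene, with Gel50_CS50 in orange left of Gel100 in blue and 95% Poisson intervals. Clusters 0 and 2 hold the highest Ly6c2 in both libraries, and Ly6i in cluster 10 is the single pair with the Gel50_CS50 bar above, with overlapping intervals.

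Macrophage clusters differed in which Ly6 gene they held. Cluster 0, led by Ccl5, Ccl12, Siglec1 and the interferon-induced genes Ifit1bl1 and Rsad2, had the highest Ly6a, at 408 CPM in Gel50_CS50 and 769.5 in Gel100, and the highest Ly6i, at 156 CPM in Gel50_CS50 and 202 CPM in Gel100. Cluster 2, led by Vcan, F13a1 and Il1b, was high in Ly6c2, at 1266 CPM in Gel50_CS50 and 2430 CPM in Gel100, but low in Ly6a, at 85.9 CPM in Gel50_CS50 and 262 CPM in Gel100. Cluster 8, led by Mrc1 and Ccl8, and cluster 12, led by Gpnmb and Trem2, had the lowest Ly6c2, at 133 CPM in Gel50_CS50 and 308 CPM in Gel100 in cluster 8 and 104 CPM in Gel50_CS50 and 293 CPM in Gel100 in cluster 12. Cluster 10, led by Stfa3 and Arg1, had Ly6i at 68.5 CPM in Gel50_CS50 and 55.6 CPM in Gel100.

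The scaffold difference had the same direction within nearly all macrophage clusters. Ly6a, Ly6c1, Ly6c2 and Ly6e were lower in Gel50_CS50 in 8 of 8 macrophage clusters. Their log2 ratios ran between -2.44 and -0.67 for Ly6a, between -1.99 and -0.76 for Ly6c1, between -1.84 and -0.33 for Ly6c2 and between -0.87 and -0.26 for Ly6e. Ly6i was lower in 7 of 8, and in cluster 10 it stood at 0.30 (-0.22 to 0.87), where Gel100 had 31 cells. The clusters themselves differed in number. Cluster 0 held 6.79% of the class in Gel50_CS50 and 31.8% in Gel100, and cluster 10 held 16.7% and 0.807%. With both libraries weighted to the same cluster mix, the ratios were -1.33 for Ly6a, -1.12 for Ly6c1, -0.82 for Ly6c2, -0.54 for Ly6e and -0.44 for Ly6i, so that 3 of the 5 genes stayed below 1/1.5. The 4.53% of all measured genes given for this class was counted without that weighting.

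The neutrophil difference also moved with the cluster mix. Cluster 11, which had Rsad2 among its leading genes, held 17.2% of the Gel50_CS50 and 57.2% of the Gel100 neutrophils, and Ly6e stood there at 1263 CPM in Gel50_CS50 and 1615 CPM in Gel100 (-0.36). Cluster 1 held 80.0% of them in Gel50_CS50 and 34.0% in Gel100, with Ly6e at 385 CPM in Gel50_CS50 and 668 CPM in Gel100 (-0.79). With the same mix the neutrophil ratio of Ly6e was -0.50, and those of Ly6c1 and Ly6c2 were -1.52 and -1.31, whereas that of Ly6a was -0.89 in place of -0.64. The count below 1/1.5 was then 3 of 5 genes, whereas the 11.6% of all measured genes was counted without that weighting. In cluster 23, led by the granule genes Ngp, Camp and Ltf, no Ly6 gene differed beyond counting error, with Ly6c2 at 463 CPM in Gel50_CS50 and 542.5 CPM in Gel100 (-0.23, -0.52 to 0.06).

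**Figure D5:**
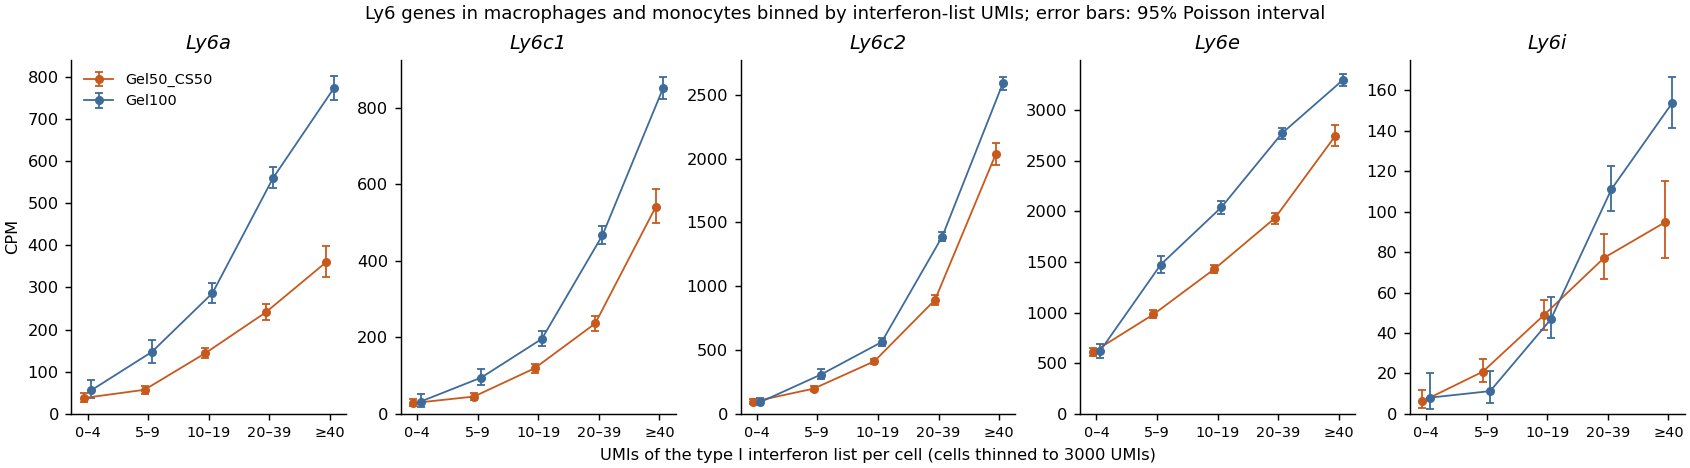
Level of each Ly6 gene (1 panel each, CPM) in macrophages and monocytes thinned to 3000 UMIs and binned by their UMIs from 26 type I interferon-stimulated genes, for Gel50_CS50 (orange) and Gel100 (blue) with 95% Poisson intervals. Levels climb with the bin in both libraries, and in the top bin Gel50_CS50 lies below Gel100 for 5 of 5 genes.

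Macrophages with more interferon-stimulated transcripts held more of the Ly6 genes in both libraries. Cells were thinned to 3000 UMIs and binned by their summed UMIs from 26 type I interferon-stimulated genes, of which the median cell had 13 in Gel50_CS50 and 31 in Gel100. Cells with at least 40 such UMIs were 9.61% of these cells in Gel50_CS50 and 35.6% in Gel100. From the bin of 0 to 4 UMIs to the bin of at least 40, Ly6c2 had 94.6 and 2032 CPM in Gel50_CS50, and 91.3 and 2591 CPM in Gel100. Ly6a had 37.4 and 361 CPM over the same bins in Gel50_CS50, and 55.6 and 773 CPM in Gel100. Ly6e had 608 and 2749 CPM in Gel50_CS50, and 621 and 3298 CPM in Gel100.

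Cells of like interferon-list counts still differed between scaffolds in some bins. In the bin of 20 to 39 UMIs, Ly6a stood at 241 CPM (816 cells) in Gel50_CS50 and 560.3 CPM (1197 cells) in Gel100, Ly6c1 at 236 and 467, Ly6c2 at 892 and 1389, and Ly6e at 1933 and 2774. In the bin of 0 to 4 UMIs the intervals of each Ly6 gene overlapped between the libraries. Ly6i in the bin of 20 to 39 UMIs stood at 77.2 CPM (66.6 to 89.0) in Gel50_CS50 and 111 CPM (100 to 123) in Gel100. In the bin of 10 to 19 UMIs it stood at 48.6 CPM in Gel50_CS50 and 46.7 CPM in Gel100. Within a bin the 2 libraries can still differ in interferon-list counts, which was not tested.

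Genes of the interferon pathways were mostly lower in Gel50_CS50 macrophages and monocytes too. Of all measured genes of that class, 4.53% lay below 1/1.5. In the type I list, 21 of 26 genes lay below 1/1.5 and 0 above 1.5-fold, with a median of -0.95. Cmpk2, an antiviral nucleotide kinase, was lowest at 55.4 CPM in Gel50_CS50 and 166 CPM in Gel100 (-1.58), and Oas2, a sensor of double-stranded RNA, highest at 73.8 CPM in Gel50_CS50 and 97.1 CPM in Gel100 (-0.40). Of 21 interferon gamma response genes, 18 lay below and 0 above, with a median of -1.09, from the guanylate-binding protein gene Gbp4 (14.4 CPM in Gel50_CS50 and 79.1 CPM in Gel100, -2.46) to the MHC class II activator Ciita (24.8 CPM in Gel50_CS50 and 21.6 CPM in Gel100, 0.20). Measured type I genes below 1/1.5 numbered 22 of 26 in neutrophils, 20 of 26 in conventional dendritic cells, 14 of 24 in T and NK cells, 10 of 25 in stromal cells and 8 of 19 in plasmacytoid dendritic cells. Interferon gamma response genes did so for 17 of 18 in neutrophils, 9 of 21 in conventional dendritic cells, 2 of 19 in T and NK cells, 10 of 16 in stromal cells and 2 of 13 in plasmacytoid dendritic cells. The share of all measured genes below 1/1.5 was 11.6% in neutrophils, 3.91% in conventional dendritic cells and 1.88% in T and NK cells. It was 2.38% in stromal cells and 1.23% in plasmacytoid dendritic cells.

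Most other monocyte genes did not lie below 1/1.5 as Ly6c2 did. Of all genes measured in macrophages and monocytes, 4.53% lay below 1/1.5. Of 13 classical monocyte genes, 2 lay below and 5 above, with a median of 0.56. The matrix protein gene Fn1 stood at 1195 CPM in Gel50_CS50 and 350.3 CPM in Gel100 (1.77). The chemokine receptor Ccr2, which defines recruited monocytes together with Ly6C, stood at 325 CPM in Gel50_CS50 and 339 CPM in Gel100 (-0.06). Of 8 non-classical monocyte genes, 1 lay below, the receptor Cd300e (22.6 CPM in Gel50_CS50 and 49.4 CPM in Gel100, -1.13), and 0 above, and Nr4a1, the regulator of these monocytes, was highest (241 CPM in Gel50_CS50 and 182 CPM in Gel100, 0.40). Of 11 GPI anchor synthesis genes, 1 lay below, Pgap1 (23.8 CPM in Gel50_CS50 and 36.6 CPM in Gel100, -0.62), and 0 above, with Dpm3 highest (64.0 CPM in Gel50_CS50 and 54.7 CPM in Gel100, 0.23). Of 4 stromal progenitor surface genes measured in macrophages, 0 were beyond 1.5-fold, between Eng at -0.44 and Cd44 at 0.52.

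The rest of the Ly6 and uPAR family was little detected. Of 39 other family genes in the matrices, 30 had fewer than 100 UMIs in each library, 8 of which had none in either. In macrophages and monocytes only Plaur, the urokinase receptor, was measured, at 162 CPM in Gel50_CS50 and 138 CPM in Gel100 (0.24). Ly6g, the neutrophil sorting antigen, stood at 71.2 CPM in the Gel50_CS50 and 284 CPM in the Gel100 neutrophils (-1.99, -2.16 to -1.83), Lypd6b at 79.5 CPM in Gel50_CS50 and 40.6 CPM in Gel100 (0.97, 0.67 to 1.28), and Plaur at 399 CPM in Gel50_CS50 and 454 CPM in Gel100 (-0.19). These were the 3 family genes measured in neutrophils. The granule-gene cluster 23 made up 2.84% of that class in Gel50_CS50 and 8.79% in Gel100.

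Over the 16 sums of class and library, the 5 genes did not follow 1 pattern. Pearson's r of log2(CPM + 10) was 0.68 between Ly6e and Ly6i and 0.61 between Ly6a and Ly6c1, but 0.23 between Ly6c1 and Ly6c2 and -0.31 between Ly6a and Ly6i. These points share libraries and depth, and r is given as a description. Among 7400 genes, those most like Ly6a were Mapk9, Faf2, Afg3l1, Trio and Rab28 (r between 0.85 and 0.87), and those most like Ly6c1 included Tgfbr2, Bmp6, Disp1 and Chic2 (0.72 to 0.76). Those most like Ly6c2 were H2-T23, Lpin2, Vcpip1, Scimp and Prkcb (0.90 to 0.94), and those most like Ly6e were Trim8, Lamp1, Snx24, Lipa and Cfb (0.86 to 0.93). Ly6i was most like Tfe3, Gla, Cd300ld, Apobec1 and Pde7b (0.93 to 0.95).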

How the data were processed

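The deposited matrices hold whole-number UMI counts per gene and cell barcode, not normalized, and per the file headers they come from Cell Ranger 6.0.2. The submitters' processing notes name the genome build mm10, and no source used here states how reads that fit several genes were treated. The libraries held 7515 barcodes and 150311308 UMIs (Gel50_CS50) and 7845 barcodes and 108847835 UMIs (Gel100). Barcodes under 500 UMIs, under 200 genes or with 20% or more mitochondrial counts were dropped (117 and 65), and scrublet in scanpy 1.11.5 then removed 192 (2.60%) and 179 (2.30%) doublets at an expected rate of 0.06. Cells were clustered together on 3000 variable genes, 30 principal components and 15 neighbours with leidenalg 0.10.2 at resolution 1.0, leaving out 45 Ly6 and uPAR family genes.

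Each cluster was scored for a class by the mean log2 difference of its markers from the median cluster and took the top-scoring class. No name was given with a score under 1.0, a lead under 0.5, fewer than 3 markers in at least 10% of cells, a median under 2000 UMIs, fewer than 20 cells, or more markers of another class than of its own among its top 10 genes. These limits were set after the data were seen.

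Log2 ratios of summed CPM, Gel50_CS50 over Gel100, have exact conditional binomial 95% intervals, CPM exact Poisson and shares exact Clopper-Pearson intervals. They cover counting error only. With 1 library per group no test was run. A count of 0 allows up to 3 counts. The quantification was tested on simulated data. The other tools were scipy 1.17.1 (intervals), biopython 1.88 (alignment of sequences) and matplotlib 3.10.9, in Python 3.11.15.

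The 5 genes and the gene lists were chosen with earlier results of these data known. The genes named from a list are its highest and lowest ratio in macrophages and monocytes, and those most like a Ly6 gene are the 5 with the highest r among genes with at least 50 CPM in at least 1 sum, except that 2 genes these rules select are not reported here. Genes named outside that rule (Ccr2, Thy1, the family genes in neutrophils and cluster leading genes) were chosen after their values were seen. Alternatives to depth, weighting, cluster mix, centring, doublets, clustering, fold and filter were computed.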

Additional observations from a re-analysis of the deposited data

How the results depend on the processing

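No Ly6 gene below 1/1.5 in the 6 larger classes changed direction under any alternative run, and 62 of 67 counts of genes beyond that fold stayed within 1.5 times of the reported one. Of 273 log2 ratios, 83 moved by more than counting error. The exceptions were macrophages and monocytes at the same cluster mix (3 of 5 genes), plasmacytoid dendritic cells at 2-fold in place of 1.5-fold (1 of 4), and stromal cells with each cell thinned to 3000 UMIs (2 of 4), with each cell weighted equally (1 of 4) and at 2-fold (1 of 4). The stromal gene left with equal weights (log2 ratio -2.67) and at 2-fold (-1.81) was Ly6c2, whose expression by stromal cells is not read here. The shares of all measured genes given above were counted at 1.5-fold without these alternatives. The cause of the stromal changes was not tested. In conventional dendritic cells the Ly6c2 ratio of -1.62 became -3.63 with 50 principal components and -3.92 with the family genes kept in the clustering, and for Ly6c1 -1.84 became -2.90 and -3.03. In T and NK cells Ly6e, at -0.36, passed the 1.5-fold line at the same cluster mix (-0.63), with equal cell weights (-0.73) and with doublets kept (-0.75). Ly6i there, under 20 CPM, was at 0.24 after thinning. Alternatives with cluster 10 left out and with the low-depth cluster 5 added were chosen after seeing the data and left the macrophage count at 5 of 5. Centring on the median gene moved ratios by at most 0.05. No paired analysis was possible because each scaffold has 1 library, and leaving out a replicate was not possible for the same reason. Depth limits Ly6i outside macrophages, and endothelial cells and pericytes, with 28 to 61 cells a library.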
